A study of Mus musculus with 5 samples.

Results

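The Krüppel-like factor genes described here are 10 genes of the mouse Klf family, Klf2, Klf3, Klf4, Klf6, Klf7, Klf9, Klf10, Klf11, Klf13 and Klf16, of 22208 protein-coding genes annotated on mouse genome build mm9. They were chosen by name, with earlier results of these data known, and their Runx3-bound regions were found by position. A peak was given to a gene when its summit, the base with the most fragments, lay in the gene's regulatory domain. The domain ran from 5 kb upstream to 1 kb downstream of the outermost transcription start site (TSS), the basal domain, and was extended both ways up to 1 Mb or to the basal domain of the next gene. By this rule the 10 genes held 52 of the 13014 Runx3 peaks, and no peak fell to more than 1 of them.

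Binding was mapped with ChIP-seq, the sequencing of DNA recovered with an antibody from fixed chromatin, in D1, a mouse dendritic cell line. The series holds 3 libraries precipitated with an antibody against Runx3 (Runx3 IP) and 2 with non-immune rabbit serum (NIS IP), which controls for unspecific recovery of chromatin. All were made from cultured D1 cells of 1 line with no genetic change or treatment stated, so nothing here compares cells with and without Runx3, and no RNA was measured by which the cell type could be checked. The labels speak of 2 replicate experiments but the design text of 3. The authors compared 1 Runx3 alignment, of 8689867 tags after duplicate removal, with 1 NIS alignment of 4946605 tags. Which libraries each alignment pooled is not stated, and there were no values per library, so no value below carries a replicate error. Intervals are 95% intervals that cover counting error only.

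Krüppel-like factors are transcription factors with C-terminal zinc fingers that bind GC-rich and CACCC-type sequences in promoters and enhancers. Their N-terminal parts differ and recruit either coactivators, among them the acetyltransferases p300, CBP and PCAF, or corepressors such as CtBP and Sin3a. In myeloid cells the family is known for its part in monocyte differentiation, quiescence and the tuning of inflammatory genes. RUNX proteins such as Runx3 recognise a short core in DNA, searched here as TGTGGT or TGCGGT on either strand, which reads ACCACA or ACCGCA when it lies on the other strand. A peak is said to hold a core when one of these lay within 100 bp of the summit.

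Runx3 peaks were found in the domains of 9 of the 10 Klf genes, against 43.1% of all genes. Klf11 had none. A peak with a RUNX core was present in 7 of 10, against 34.4% of all genes, and a strongest peak with a fold enrichment of 10 or more in 6 of 10, against 19.7%. The basal domain held a peak in 5 of 10, Klf2, Klf6, Klf10, Klf13 and Klf16, against 17.4%. The number of peaks was 13 for Klf13, 10 for Klf7, 7 for Klf6, 5 each for Klf3 and Klf9, 4 for Klf10, 3 each for Klf2 and Klf4 and 2 for Klf16. The median was 4.5 peaks per Klf gene and 0 per gene over all genes. Since the 10 genes were chosen with earlier results known, these shares and the density calls below are descriptions. Of the 7 Klf genes outside the set 2 had a peak (28.6%).

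These domains were long, with a median of 728 kb, against 90.1 kb over all genes, and a longer domain can collect more peaks. All 6 Klf genes with a domain of 500 kb or more had a peak, as did 53.5% of all genes with such domains. Of the 4 with shorter domains 3 had a peak, against 41.9% of all such genes.

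**Figure D1:**
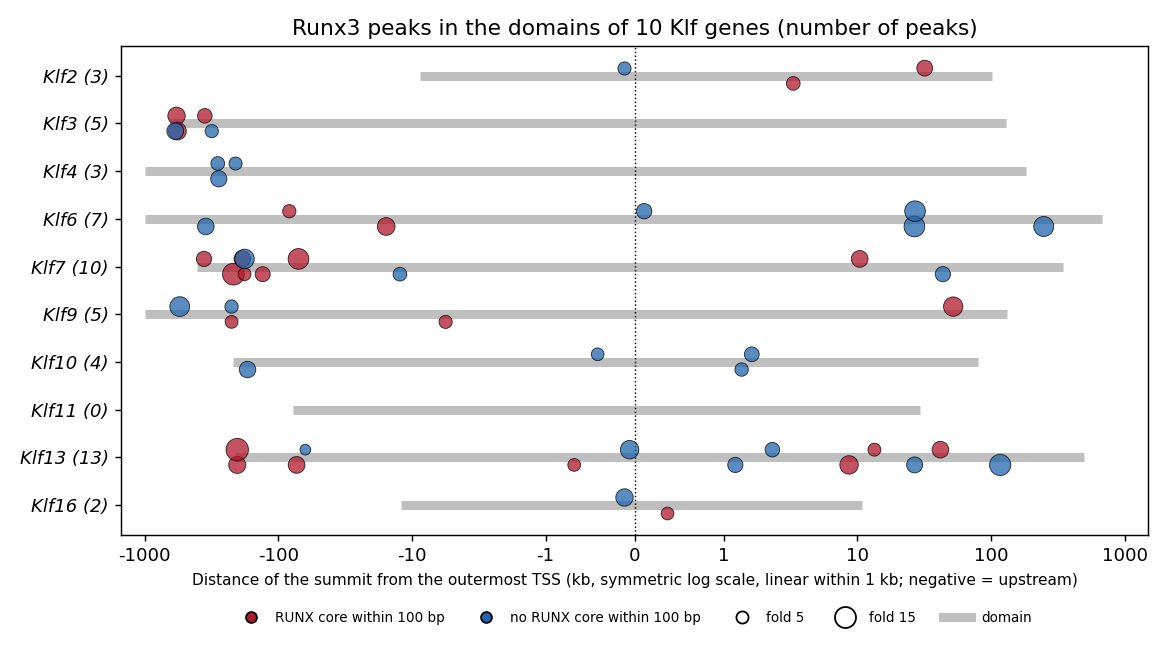
Position of each of the 52 Runx3 peaks relative to the outermost TSS of its Klf gene, in kb on a symmetric log axis (negative values are upstream). Grey bars are domains, the area of a circle is proportional to the fold enrichment of Runx3 IP over NIS, and the colour tells whether a RUNX core lay within 100 bp of the summit. Peaks of Klf3 and Klf4 lay only far upstream, those of Klf16 only at the TSS, and those of Klf13 on both sides from 203 kb upstream to 117 kb downstream.

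The results are given by the cofactors that the family's subgroups are known to recruit, a grouping made after the peaks were counted. The fold enrichment is the authors' value, the height of Runx3 fragments over that of the NIS background, each with 1 added. The number of Runx3 fragments covering a summit was recovered from the deposited pileup. Sequences cover 50 bp each side of the summit in mm9, plus strand, with RUNX cores in capitals. They are shown for the strongest peaks, to let cores and their neighbourhood be read, and for promoter peaks, most of which held none.

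The genes of the subgroup that works with acetyltransferases, Klf2, Klf4, Klf6 and Klf7, held 23 peaks, of which 11 had a RUNX core and 1 lay at a promoter. Over all peaks 64.2% held a core and 22.9% lay at a promoter. Klf7, known for its part in neuronal development, lies on chromosome 1 from 64076021 to 64168856 on the minus strand. It had 10 peaks, 8 upstream and 2 in its own introns, and 7 held a core. The strongest was 217 kb upstream in intergenic sequence, with 40 Runx3 fragments (95% exact Poisson interval 28.6 to 54.5) and a fold of 16.1. A peak 70.7 kb upstream had 32 fragments and a fold of 14.6 and carried 2 cores. Both sequences are shown for their cores, and the second has them in the same orientation on either side of the summit.
Klf7, 217 kb upstream (chr1:64385373-64385473): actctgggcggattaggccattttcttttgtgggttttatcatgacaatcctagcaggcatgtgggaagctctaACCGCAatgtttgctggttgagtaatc
Klf7, 70.7 kb upstream (chr1:64239492-64239592): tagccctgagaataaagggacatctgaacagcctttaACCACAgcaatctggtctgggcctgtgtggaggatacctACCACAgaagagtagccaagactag

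The other upstream peaks of Klf7 had folds of 7.89 (360 kb), 9.29 (186 kb), 12.9 and 5.62 (a pair at 179 kb with summits 0.405 kb apart), 7.69 (131 kb) and 6.39 (12.3 kb). The peak of 12.9 and that at 12.3 kb held no core. Of the intron peaks, the one 10.4 kb downstream of the TSS had a fold of 9.55 and a core, and that at 43.6 kb a fold of 7.87 and no core. The basal domain of Klf7 held no peak. All 8 upstream peaks also lay in the domain of Creb1, which encodes a cyclic AMP-responsive transcription factor, and 8 of the 10 were nearer to the outermost TSS of Klf7 than to that of any other gene.

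Klf6, a factor known to promote inflammatory gene expression in macrophages, lies on chromosome 13 from 5860735 to 5869639 on the plus strand. Its 7 peaks had folds from 6.03 to 14.6, and 2 held a core. The strongest were a pair of intergenic peaks 26.7 and 27 kb downstream of the TSS, beyond the end of the gene, with summits 0.329 kb apart and 32 fragments each (95% exact Poisson interval 21.9 to 45.2). Neither held a core. The peak with most fragments, 46, lay 248 kb downstream without a core, with a fold of 13.6 on a NIS background of 1, which was 0.315 at the pair. The upstream peak at 15.6 kb (fold 10.7, 23 fragments) and that at 82.8 kb (fold 6.03, 13 fragments) held the 2 cores. A peak 0.106 kb downstream of the TSS, in the untranslated part of the first exon, had a fold of 8.12. Its summit lay just past the promoter limit of 100 bp downstream, so it was not counted at a promoter. The seventh peak lay 349 kb upstream with a fold of 9.42. The sequences contrast a strong summit without a core with a weaker one that has it, preceded by a run of A.
Klf6, 26.7 kb downstream (chr13:5887384-5887484): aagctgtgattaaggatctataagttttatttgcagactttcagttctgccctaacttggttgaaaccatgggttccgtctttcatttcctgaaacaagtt
Klf6, 15.6 kb upstream (chr13:5845112-5845212): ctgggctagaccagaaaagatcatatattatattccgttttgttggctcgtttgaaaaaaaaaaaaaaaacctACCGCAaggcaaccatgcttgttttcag

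Klf2, known for holding lymphocytes in quiescence and for restraining inflammatory activation of myeloid and endothelial cells, lies on chromosome 8 from 74842932 to 74845555 on the plus strand. Its 3 peaks had folds from 5.91 to 8.55. The promoter peak, 0.124 kb upstream of the TSS, had 19 fragments and a fold of 5.91, with a NIS background of 1. A peak 3.31 kb downstream had 14 fragments and a fold of 6.44. The strongest, 31.9 kb downstream in an intron of the endocytosis gene Eps15l1, had 18 fragments (95% exact Poisson interval 10.7 to 28.4) and a fold of 8.55. The last 2 held a core within 100 bp and the promoter peak did not. In the peak at 3.31 kb the core lay 93 bp from the summit, outside the called peak, and in the strongest the nearest lay at 9 bp. Sequences of the strongest and of the promoter peak are shown.
Klf2, 31.9 kb downstream (chr8:74874740-74874840): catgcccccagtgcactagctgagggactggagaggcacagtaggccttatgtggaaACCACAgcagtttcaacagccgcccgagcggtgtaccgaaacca
Klf2, 0.124 kb upstream (chr8:74842758-74842858): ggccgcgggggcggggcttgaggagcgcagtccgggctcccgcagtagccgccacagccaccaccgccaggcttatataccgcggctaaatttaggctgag

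Klf4, a reprogramming factor that is also required for monocyte differentiation, lies on chromosome 4 from 55540013 to 55545347 on the minus strand. It had 3 peaks in a domain of 1181 kb, fewer than the 5.83 expected from the length. They lay in intergenic sequence 284, 279 and 209 kb upstream with folds of 6.46, 8.97 and 5.82 and 15, 20 and 12 fragments. None held a TGTGGT or TGCGGT core, while 2 held one when TGTGGG was counted as well. Each was also in the domain of the actin-like gene Actl7b. A nearer peak, 182 kb from the TSS at the promoter of Rad23b, had a fold of 6.82. It lay 0.984 kb outside the domain of Klf4 and was not counted. The strongest of the 3 counted peaks is shown as a summit without a core, with the PU.1-type letters gaggaagt to the right of its centre.
Klf4, 279 kb upstream (chr4:55824658-55824758): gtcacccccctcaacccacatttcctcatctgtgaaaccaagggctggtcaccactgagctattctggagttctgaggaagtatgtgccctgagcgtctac

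Klf3, a repressor that works through CtBP, was the only 1 of its subgroup among the 10 and lies on chromosome 5 from 65194628 to 65221368 on the plus strand. All 5 of its peaks lay 315 to 591 kb upstream, and 4 were nearer to the outermost TSS of another gene than to that of Klf3. Of the summits, 3 lay in introns of Tbc1d1, a Rab GTPase-activating protein gene, 591, 578 and 569 kb upstream, with folds of 9.55, 10.3 and 10.7 and 23, 22 and 23 fragments. The intergenic peaks at 355 and 315 kb had folds of 7.23 and 5.96. The 5 peaks all lay in the domain of Tbc1d1 too, and 3 held a core, among them the strongest.
Klf3, 569 kb upstream (chr5:64625466-64625566): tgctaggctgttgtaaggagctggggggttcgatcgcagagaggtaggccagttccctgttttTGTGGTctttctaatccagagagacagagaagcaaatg

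The genes of the subgroup that works with Sin3a, Klf9, Klf10, Klf11, Klf13 and Klf16, held 24 peaks, of which 11 had a core and 5 lay at promoters. Of these promoter peaks 3 were of Klf13. The shares over all peaks were 64.2% and 22.9%, as above. Klf13, known for driving the chemokine gene Ccl5 in T cells, lies on chromosome 7 from 71031237 to 71083801 on the minus strand. It had 13 peaks, 6 upstream and 7 downstream of the TSS, and 7 held a core. The strongest had 38 fragments (95% exact Poisson interval 26.9 to 52.2) and a fold of 17.2, and lay 203 kb upstream in intergenic sequence, 0.673 kb from a neighbour with 22 fragments and a fold of 9.97. Both held 2 cores within 100 bp. They lay 7.35 and 6.68 kb inside the edge of the domain, on the side of Trpm1, an ion channel gene in whose domain they also lay.

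At the Klf13 promoter, summits 0.057 and 0.679 kb upstream of the TSS had folds of 11.6 and 5.52 and 25 and 11 fragments. Another promoter peak, 13.4 kb downstream at an inner TSS of Klf13, had a fold of 5.69. The introns of Klf13 held 5 further peaks, at 1.22, 2.31, 8.66, 26.8 and 41.8 kb, with folds of 7.87, 7.22, 11.6, 8.75 and 9.42. An intergenic peak 117 kb downstream had 52 fragments, the most of any Klf peak, with a NIS background of 1 and a fold of 15.3. The remaining upstream peaks lay at 73 kb (fold 9.55) and at 62.8 kb, where a NIS background of 2 went with 19 fragments and a fold of 3.94, the lowest of the 52. The strongest summit and the stronger promoter summit are shown, the first with a core beside its centre and the second without one in GC-rich sequence.
Klf13, 203 kb upstream (chr7:71286317-71286417): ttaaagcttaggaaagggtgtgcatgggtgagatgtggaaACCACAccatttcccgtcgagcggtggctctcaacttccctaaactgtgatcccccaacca
Klf13, 0.057 kb upstream (chr7:71083808-71083908): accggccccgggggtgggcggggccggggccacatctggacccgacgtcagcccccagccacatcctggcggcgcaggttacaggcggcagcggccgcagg

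Klf9, a gene known to respond to thyroid hormone and glucocorticoids, lies on chromosome 19 from 23215716 to 23241401 on the plus strand and had 5 peaks, 3 of them with a core. The strongest, 547 kb upstream, had 30 fragments (95% exact Poisson interval 20.2 to 42.8), a fold of 13.3 and no core. It lay in an intron of the ion channel gene Trpm3, as did a pair 224 kb upstream with folds of 5.62 and 6.08. The peak 52.1 kb downstream of the TSS had 43 fragments and a fold of 12.7 on a NIS background of 1, and held a core. A peak 5.6 kb upstream, just outside the basal domain, had 19 fragments and a fold of 5.91. Both strong sequences are shown, one without and one with a core.
Klf9, 547 kb upstream (chr19:22669150-22669250): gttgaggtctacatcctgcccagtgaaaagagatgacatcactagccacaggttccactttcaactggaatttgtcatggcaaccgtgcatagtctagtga
Klf9, 52.1 kb downstream (chr19:23267757-23267857): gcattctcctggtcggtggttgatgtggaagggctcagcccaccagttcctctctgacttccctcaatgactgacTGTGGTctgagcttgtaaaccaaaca

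Klf10 and Klf11 are known as early response genes of TGF-β. Klf10 lies on chromosome 15 from 38221219 to 38230464 on the minus strand and had 4 peaks, none with a core. They lay at the promoter 0.416 kb upstream (fold 5.52, 11 fragments), in Klf10 introns 1.36 and 1.62 kb downstream (folds 6.14 and 7.45) and in intergenic sequence 170 kb upstream (fold 9.22, 21 fragments). GC content around these summits was 69.2% to 79.6%, against a median of 50.2% over all peaks. A peak with a fold of 12 at the promoter of the neighbour Azin1 lay 0.113 kb outside the domain of Klf10 and was not counted, the nearest miss of any member. Klf11, on chromosome 12 from 25336236 to 25347639 on the plus strand, had no peak in a domain of 108 kb. The nearest summit was 56.8 kb from its TSS, at the promoter of Rrm2, a ribonucleotide reductase gene, with a fold of 6.73, and lay 27.3 kb outside the domain. The length of the domain gives 0.53 expected peaks, so a lack of binding at Klf11 was not detectable from this count of 0.
Klf10, 0.416 kb upstream (chr15:38230830-38230930): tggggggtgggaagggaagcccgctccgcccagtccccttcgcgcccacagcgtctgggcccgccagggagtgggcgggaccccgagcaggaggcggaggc

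Klf16, a less studied gene of the Sin3a subgroup, lies on chromosome 10 from 80029874 to 80040041 on the minus strand. Its domain of 22.8 kb was the shortest and held 2 peaks, both at the TSS. The promoter peak 0.118 kb upstream had 22 fragments (95% exact Poisson interval 13.8 to 33.3), a fold of 10.3 and no core. The peak 0.359 kb downstream, in the coding part of an exon, had 11 fragments, a fold of 5.52 and a TGCGGT core. GC content was 80.6% and 77.6%. A peak at the promoter of Fam108a, with a fold of 8.08, lay 1.01 kb outside the domain.
Klf16, 0.118 kb upstream (chr10:80040109-80040209): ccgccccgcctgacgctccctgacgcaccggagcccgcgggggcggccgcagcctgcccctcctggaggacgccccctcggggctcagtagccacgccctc

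**Figure D2:**
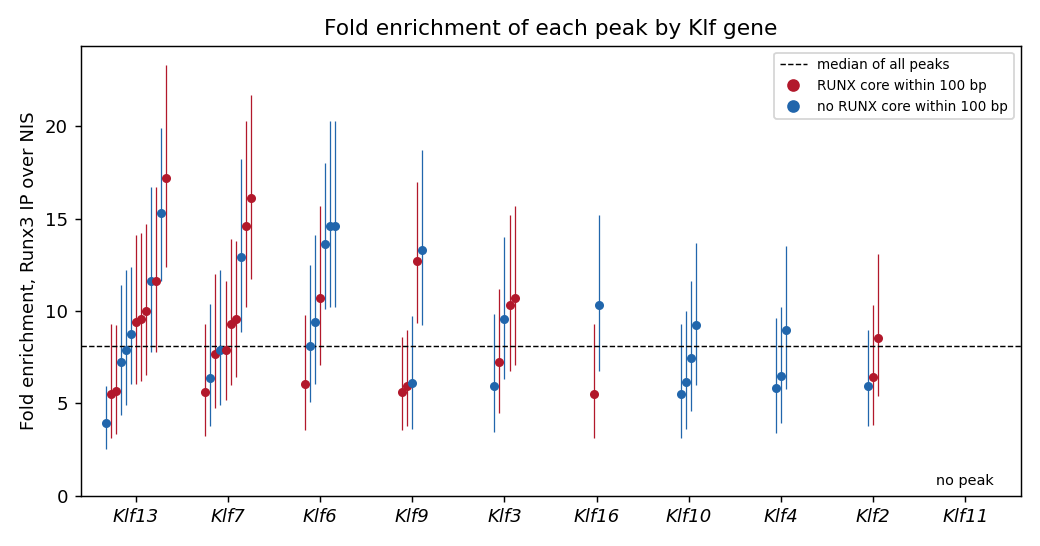
Fold enrichment of Runx3 IP over NIS (vertical axis, from 0) for each of the 52 peaks, by Klf gene in the order of the strongest peak. Points are the authors' values, bars are 95% intervals from the Poisson error of the Runx3 fragments with the NIS background held fixed, and the dashed line is the median of all 13014 peaks, 8.12. The strongest peaks run from 17.2 at Klf13 to 8.55 at Klf2, and intervals of neighbours in the order overlap.

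Ordered by strongest peak, the folds were 17.2 for Klf13 (95% interval 12.4 to 23.3), 16.1 for Klf7 (11.7 to 21.7), 14.6 for Klf6 (10.2 to 20.3), 13.3 for Klf9 (9.23 to 18.7), 10.7 for Klf3 (7.07 to 15.7), 10.3 for Klf16 (6.73 to 15.2), 9.22 for Klf10 (5.98 to 13.7), 8.97 for Klf4 (5.76 to 13.5) and 8.55 for Klf2 (5.38 to 13.1). No neighbours in this order differed beyond counting error. Between the ends, the ratio of the 38 fragments at Klf13 to the 18 at Klf2 was 2.11 (exact conditional 95% interval 1.18 to 3.93). This pair was picked as the extremes, so the ratio is a description. The strongest peaks of Klf13, Klf7, Klf9, Klf3 and Klf10 lay nearer to the outermost TSS of another gene. With each peak given to the nearest gene alone, the strongest folds of these genes were 15.3, 14.6, 12.7, 5.96 and 7.45. Those of Klf6, Klf16, Klf4 and Klf2 did not change.

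As a set, the 52 peaks were of ordinary strength. Their fold ran from 3.94 to 17.2 with a median of 8.65, against 3.01 to 52.7 with a median of 8.12 over all peaks. Fragments at the summit had a median of 20, against 19, and width a median of 172 bp in both. A fold of 10 or more was reached by 16 of 52 (30.8%, 95% Wilson interval 19.9 to 44.3), against 28.7% of all peaks. In 8 of the 52 the NIS background was above 0.9, where fold is lower for the same fragments; 2247 of all peaks shared this.

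Most of these peaks lay away from promoters. The median distance from the TSS of the Klf gene was 66.8 kb, with 7 summits within 1 kb, 14 within 10 kb and 23 beyond 100 kb. By place, 28 were intergenic, 16 in introns, 6 at promoters, 1 in a UTR and 1 in a coding exon. Promoters took 11.5% of the Klf peaks (95% Wilson interval 5.4 to 23), against 22.9% of all peaks. Another summit lay within 10 kb of 50% of the Klf peaks and of 43.7% of all peaks. The Klf gene had the nearest outermost TSS for 42 of 52, but 43 of 52 also lay in the domain of a neighbouring gene, to which they could equally be given.

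Whether a gene had more peaks than its domain length would give was tested for all 22208 genes against the genome-wide density of 4.93 peaks per Mb (one-sided exact Poisson test, Benjamini-Hochberg adjustment over all genes). Klf13 passed, with 13 peaks where 3.47 were expected, or 18.5 per Mb (95% exact interval 9.85 to 31.6; adjusted p = 0.00462). No other Klf gene passed, and 4.38% of all genes did. In the same exact test next came Klf7, with 10 peaks against 3.72 expected (adjusted p = 0.0903), Klf16, with 2 against 0.112 (adjusted p = 0.101), Klf2, with 3 against 0.544 (adjusted p = 0.22), and Klf10, with 4 against 1.47 (adjusted p = 0.475). Klf3, Klf4, Klf6, Klf9 and Klf11 had an adjusted p of 1, and of these all but Klf3 held fewer peaks than expected, 3 against 5.83 for Klf4, 7 against 8.29 for Klf6, 5 against 5.58 for Klf9 and 0 against 0.53 for Klf11. Peaks that lie in groups are not independent, as the test takes them to be, and its p-values may be too low for this reason. The test also takes peaks as spread evenly along the genome, while 22.9% of all summits lay in promoters. The basal domain makes up a larger part of a short domain, such as the 22.8 kb of Klf16. For short domains the expected number may therefore be too low. With peaks of a fold of 10 or more alone the call of Klf13 ended (adjusted p = 0.506, exact Poisson test), while its adjusted p under the other alternatives ran from 4.36e-05 to 0.0272.

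**Figure D3:**
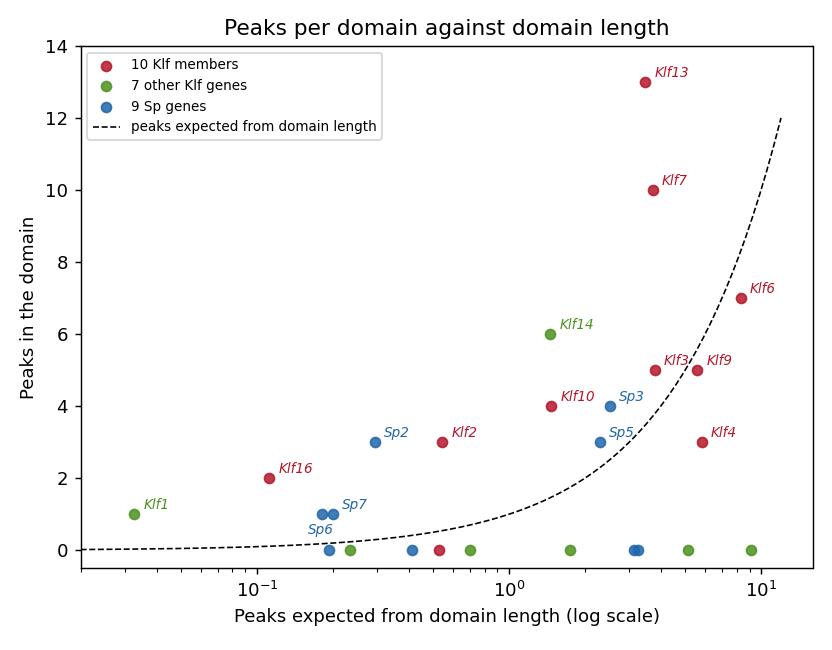
Number of Runx3 peaks in the domain (vertical axis) against the number expected from domain length at the genome-wide density (horizontal log axis) for the 10 Klf genes, 7 other Klf genes and 9 Sp genes. The dashed line marks equality. Klf13, with 13 peaks where 3.47 were expected, stands farthest above the line. Of the 10 Klf genes, Klf4, Klf6, Klf9 and Klf11 lie below it, and the genes of the other lists that lie below it are those with no peak.

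The RUNX core was present in 25 of 52 Klf peaks (48.1%, 95% Wilson interval 35.1 to 61.3), against 64.2% of all peaks, a share above the upper end of that interval. Wilson intervals take the peaks as independent, while 50% of the Klf peaks had another summit within 10 kb. The intervals may therefore be too narrow, and the difference is a description. Equal windows placed 1 kb to either side of the Klf summits held a core in 19.2% (upstream) and 17.3% (downstream), against 17.6% and 16.9% around all summits. In 23 Klf peaks the summit held a core and the upstream window did not, while 8 had it upstream alone. For the downstream window these counts were 21 and 5. Where a core was found, the nearest lay at a median of 17 bp from the summit, and within 30 bp in 21 of 25. Of the cores in these 25 peaks 22 read TGTGGT and 8 read TGCGGT, counting each core of a peak.

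Counts of cores by gene were small, and differences between genes were not tested. Cores lay in 7 of 10 peaks of Klf7, 7 of 13 of Klf13, 3 of 5 of Klf3 and of Klf9 and 2 of 3 of Klf2. They lay in 2 of 7 of Klf6 and 1 of 2 of Klf16, and in none of the 3 of Klf4 or the 4 of Klf10. The share outside promoters was 50% (95% Wilson interval 36.1 to 63.9), against 69.2% over all such peaks. At promoters it was 2 of 6, against 47.1%. GC content moved with the core too. Among Klf summits with a GC content of 55% or more 5 of 16 held a core (31.2%), against 49.4% of all such peaks, and below 55% it was 20 of 36 (55.6%), against 70.6%. Counting TGTGGG as a core, an alternative chosen after seeing the data, raised the share to 67.3% (95% Wilson interval 53.8 to 78.5), against 75.3% of all peaks, with 25% and 28.8% in the windows 1 kb away, against 30.8% and 30.3%. Klf peaks with a core had a median fold of 9.29 and those without 8.12, against 8.55 and 7.33 over all peaks.

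Motifs of other factors known from myeloid enhancers and promoters were searched in the same windows on both strands. The AP-1 motif TGANTCA was present in 19.2% of Klf peaks (95% Wilson interval 10.8 to 31.9), against 12.2% of all peaks, and the C/EBP motif TTGCNNAA in 13.5% (6.68 to 25.3), against 8.3%. The PU.1-type motif GAGGAAGT stood at 9.62% (4.18 to 20.6), against 10.9%, and the composite motif of ETS and IRF factors, GGAA followed after 2 bases by GAAA, at 5.77% (1.98 to 15.6), against 6.5%. CCNCNCCC, a CACCC-type sequence that Krüppel-like factors themselves can bind, was present in 32.7% (21.5 to 46.2), against 28.6%, and in 5 of the 6 Klf promoter peaks, against 55.9% of all promoter peaks. For these 5 motifs the share over all peaks lay within the interval of the Klf peaks. A match describes letters only.

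**Figure D4:**
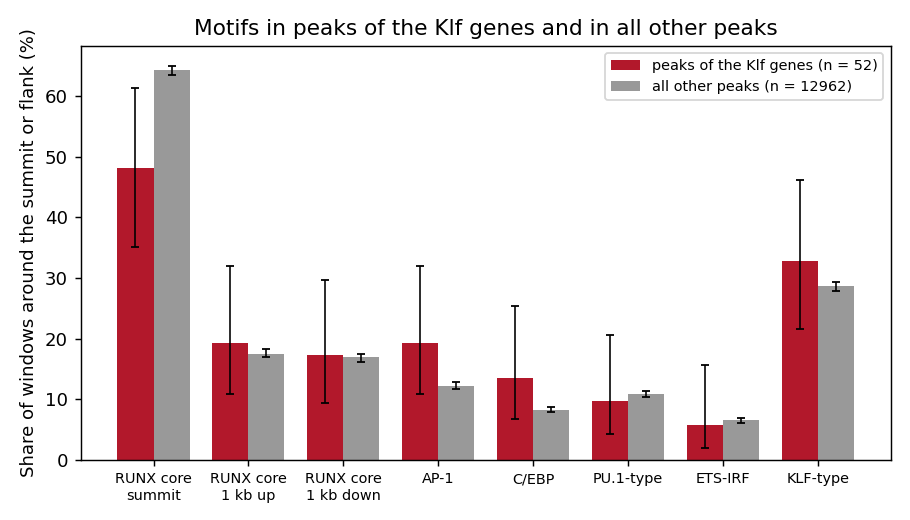
Share of windows, 100 bp to each side of their centre, that held each motif (vertical axis, percent) in the 52 Klf peaks and in the other 12962 peaks, with 95% Wilson intervals. The RUNX core is shown at the summit and in windows 1 kb to either side, the other motifs at the summit. The core stood at 48.1% of Klf summits and 64.2% of other summits, above the 19.2% and 17.3% of windows 1 kb from Klf summits.

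Of the 7 Klf genes outside the set 2 had a peak. Klf14, of the Sin3a subgroup, held 6 peaks, all with a core, in a domain of 297 kb, with a strongest fold of 19.2 at 122 kb upstream, above any of the 10 genes (1.46 peaks expected, adjusted p = 0.0772 by the same exact test). Klf1, the erythroid factor, had 1 peak with a fold of 9.42, 1.22 kb downstream of the TSS. Klf5, Klf8, Klf12, Klf15 and Klf17 had none, although the domain of Klf12, 1850 kb, would have held 9.12 at the genome-wide density. The related Sp genes, whose zinc fingers bind similar GC-rich sequences, had a peak in 5 of 9. Sp3 held 4 peaks with a strongest fold of 16.3 and a summit 0.05 kb from its TSS, Sp5 and Sp2 held 3 each, and Sp6 and Sp7 held 1 each, while Sp1, Sp4, Sp8 and Sp9 had none. Over both lists 7 of 16 genes (43.8%) had a peak, near the 43.1% of all genes.

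Genes that act with the family were counted from lists of cofactors, upstream regulators and targets. Of 10 cofactor genes 5 had a peak. Ep300, which encodes p300, held 6 where 0.761 were expected (adjusted p = 0.00749, the same exact test), with a strongest fold of 7.33. The deacetylase gene Hdac2 held 1 where 3.09 were expected, with a fold of 15. Sin3a, Crebbp and Kat2b also had a peak in the domain, while Ctbp1, Ctbp2, Sin3b, Hdac1 and the ubiquitin ligase gene Wwp1 had none. The basal domain held a peak in 0 of the 10 cofactor genes, against 17.4% of all genes. The nearest summit lay 1.56 kb from the TSS for Kat2b and 4.7 kb for Sin3a. For Ep300, Crebbp and Hdac2 it lay at 16.5, 59.1 and 141 kb. Of the pathway that induces Klf2 and Klf4 in endothelium, Mapk7 had no peak and the kinase gene Map2k5 held 1, with 1.2 expected. The transcription factor genes Mef2a, Mef2c and Mef2d held 5, 4 and 2 peaks, with 2.07, 8.45 and 0.931 expected. Among genes known as targets of the family, the lymphocyte egress receptor gene S1pr1 held 4, with 4.82 expected. Smad7, an inhibitor of TGF-β signalling, held 3, with 3.34 expected and a strongest fold of 12.2. The integrin gene Itgb7, Nos3 and Tgfb1 held 2 each, with 0.256, 0.158 and 0.178 expected. The strongest fold of Itgb7 was 11.9. Thbd had none. Over the 3 lists 14 of 22 genes (63.6%) had a peak, against 43.1% of all genes. The domains of the 22 genes had a median length of 149 kb, against 90.1 kb over all genes. Of the 22 genes 1 passed the density test, Ep300, against 4.38% of all genes. With the basal domain alone 3 of the 22 had a peak, a lower share than the 17.4% of all genes.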

How the data were processed

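Reads were aligned uniquely to mm9 with Bowtie 1 after base calling with CASAVA 1.8, and peaks were called with MACS2 2.0.10 at a q cutoff of 0.05, per the submitters' processing notes, the study's methods and the file header. One deposited peak list was analysed. Its pileup is a signal, the coverage of the summit by fragments of 119 bp, scaled by the authors to the NIS depth. Dividing by 0.569, the value of 1 Runx3 fragment, gave whole fragments within 0.02 for 100% of peaks. The deposited fold enrichment is a ratio, pileup plus 1 over the NIS background plus 1, from which the background was recovered. The deposited −log10 q of the authors' peak caller was used only as a filter, and its −log10 p was not used. Keeping 1 tag per position limits summit height, and unique alignment lowers coverage in repeats.

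Coordinates are 1-based mm9. Domains, promoters (1 kb upstream to 100 bp downstream of the TSS of any protein-coding transcript) and sequence came from NCBIM37 with GENCODE vM1, in which 22350 gene models on 20 chromosomes merged by name to 22208 genes. The density test ran over all genes and was tried on simulated independent Poisson counts. These hold no groups of peaks and no excess near a TSS, so they do not show how the test behaves on such data. Alternatives were stricter peaks, shorter domains, the nearest gene alone, the density of the gene's own chromosome, and other windows, cores and promoters. The genes named are the 10 Klf genes, genes of the 5 other lists, and neighbours that share or hold a peak. Neighbours just outside a domain (Azin1, Rrm2, Fam108a and Rad23b) were named after their values were seen. A gene of the target list is counted but not reported by name here. The Klf genes and lists were chosen with earlier results of these data known. Tables were handled in pandas 2.3.3 and NumPy 2.4.6 under Python 3.11.15, tests were run in SciPy 1.17.1, and plots were drawn with matplotlib 3.10.9.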

Additional observations from a re-analysis of the deposited data

How the results depend on the processing

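With the basal domain alone 5 Klf genes had a peak, with 7 peaks in all, and Klf3, Klf4, Klf7 and Klf9 then had none. Of the 7 peaks 71.4% lay at a promoter and 28.6% held a core. The basal domain surrounds the TSS, so this setting itself raises the promoter share. No share over all peaks in basal domains is given beside these few peaks. The same setting left 1 of the 16 other KLF and Sp genes and 3 of the 22 partner, upstream and target genes with a peak, both below the 17.4% of all genes, although the second list stood above all genes with full domains, and 643 genes of the annotation and 2 Klf genes, Klf13 and Klf16, passing the density test, against 972 and 1 with full domains. With domains extended by at most 100 kb there were 29 Klf peaks, and Klf3 and Klf4 had none. Peaks with a fold of 10 or more left 16 Klf peaks, 3 other KLF and Sp genes and 7 partner genes with a peak (19.7% of all genes), and 85 genes and 0 Klf genes passing. Giving each peak to the nearest gene alone called 529 genes, Klf7 and Klf13 among them, and the density of the gene's own chromosome also called these 2. With peaks that held a core 25 Klf peaks remained. The share with a core was 34.6% for TGTGGT alone and 67.3% with TGTGGG added, a setting chosen after seeing the data. Of 63 recounts of the peaks of the 9 Klf genes with a peak 28 stayed within 1.5 times. The strongest fold was recomputed in 36 cases where a gene kept a peak, and in 30 it stayed within its counting interval. Cases where a gene lost every peak are not in this count. A peak that is kept keeps its fold, so the count says little about stability.

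No paired analysis was possible because the peak list holds no values per library, and for the same reason no replicate could be left out. With 11 to 52 fragments at each Klf summit, differences between these peaks below about the width of the intervals given were not detectable.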
